A study of Mus musculus with 22 samples.

Results

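Cassette exons were compared between mouse R1 embryonic stem (ES) cells that had received siRNA against 1 of the 3 heterochromatin protein 1 (HP1) proteins and untransfected R1 cells, here WT. The HP1alpha, HP1beta and HP1gamma knock-downs were each made with 90 nM siRNA and lipid transfection, and RNA was taken 48 h later. An exon was tested if it was listed in all 4 libraries with at least 20 reads that tell inclusion from skipping in each. Of 10873 exon events in the series, 7035 were listed in the 4 libraries and 5101 were tested, covering 4901 distinct exons in 2939 genes. An exon counted as shifted if its deposited inclusion level differed from WT by at least 0.1 in the same direction in all 3 knock-downs. It counted as changed if, in addition, the summed reads of the 3 knock-downs differed from WT in that direction by a test adjusted for exon length.

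A triple knock-down in R1 cells (60 nM against each HP1) and a pair of groups in TKO cells, which lack the DNA methyltransferases of Dnmt1, Dnmt3a and Dnmt3b, served as further libraries. The TKO cells were either transfected against the 3 HP1 proteins at 80, 80 and 120 nM or left untransfected. Each group was 1 pooled library of 2 replicates, so there was no replicate measurement and each test compares libraries, not conditions. All knock-downs were 101-base paired-end HiSeq libraries, while WT and TKO were 50-base single-end Genome Analyzer libraries of cells that received no siRNA. No group with a control siRNA is used here. HP1 knock-down, transfection and sequencing platform therefore coincide and cannot be told apart in any comparison with WT or with TKO.

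HP1 proteins read methylated lysine 9 of histone H3 through a chromodomain and are known for building silent heterochromatin. They also bind within gene bodies, where chromatin can affect the choice of exons made during transcription. A cassette exon is either joined between its neighbours or skipped, and its inclusion level is the share of transcripts that keep it, from 0 to 1. The study was about whether DNA methylation acts on splicing through HP1.

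The targeted genes were checked by the reads of their exon events scaled to 1000000 event reads of the library (RPM). Cbx5, which encodes HP1alpha, had 43.0 RPM in the HP1alpha knock-down, against 110 and 105 RPM in the HP1beta and HP1gamma knock-downs and 113 in WT. Cbx1, which encodes HP1beta, had 507 RPM in the HP1beta knock-down, against 1522 and 1625 RPM in the HP1alpha and HP1gamma knock-downs and 615 in WT. Cbx3, which encodes HP1gamma, had 32.2 RPM in the HP1gamma knock-down, against 49.6 and 52.2 RPM in the HP1alpha and HP1beta knock-downs and 457 in WT. Each gene was thus lowest in its own knock-down among the 3, but the other knock-downs did not match WT, being higher for Cbx1 and lower for Cbx3. In these bulk libraries fewer cells with an RNA and less RNA per cell cannot be told apart. The 3 tested HP1 events, in Cbx5 and Cbx1, were not shifted, and the Cbx3 event had 19 distinguishing reads in the HP1gamma knock-down and was not tested. Of 12 ES cell markers, 6 had events in each of the 4 libraries, with a summed 3059, 3078 and 3139 RPM after HP1alpha, HP1beta and HP1gamma knock-down and 2698 RPM in WT. Of 10 markers of differentiated cells only Fn1 had events in these libraries, at 433, 344 and 352 RPM after HP1alpha, HP1beta and HP1gamma knock-down and 357 RPM in WT.

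Event reads numbered 9750348, 8907552 and 7383028 after HP1alpha, HP1beta and HP1gamma knock-down, and 25941844 in WT. The median tested exon had 135, 119 and 95 distinguishing reads after HP1alpha, HP1beta and HP1gamma knock-down and 246 in WT. The median deposited interval was 0.10, 0.11 and 0.12 wide in these knock-downs and 0.05 in WT. The make-up of the reads differed too. Inclusion reads numbered 3.30, 3.24 and 3.17 per skipping read after HP1alpha, HP1beta and HP1gamma knock-down and 7.10 in WT, and 51.8% to 53.4% of the reads in knock-downs fitted neither isoform, against 37.5% in WT. Tested exons without any read that fits both isoforms numbered 832, 855 and 884 after HP1alpha, HP1beta and HP1gamma knock-down and 3 in WT.

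Longer exons had lower odds of inclusion over skipping reads in the knock-downs relative to WT, and this dependence set the null value of the test. The median log2 odds ratio of the summed knock-downs over WT was -0.29 in the shortest eighth of exons, of 6 to 61 nucleotides. It was -1.07 and -0.98 in the longest eighths, of 166 to 215 and 216 to 9955 nucleotides. Deposited levels followed the same course: the shortest eighth had 9.66% of its exons shifted lower and the longest 32.3%. After the adjustment the share of exons that fell was 5.97% to 8.63% in every eighth, whereas the share that rose was 2.96% in the shortest eighth, 0.488% in the next to longest and 1.26% in the longest.

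**Figure D1:**
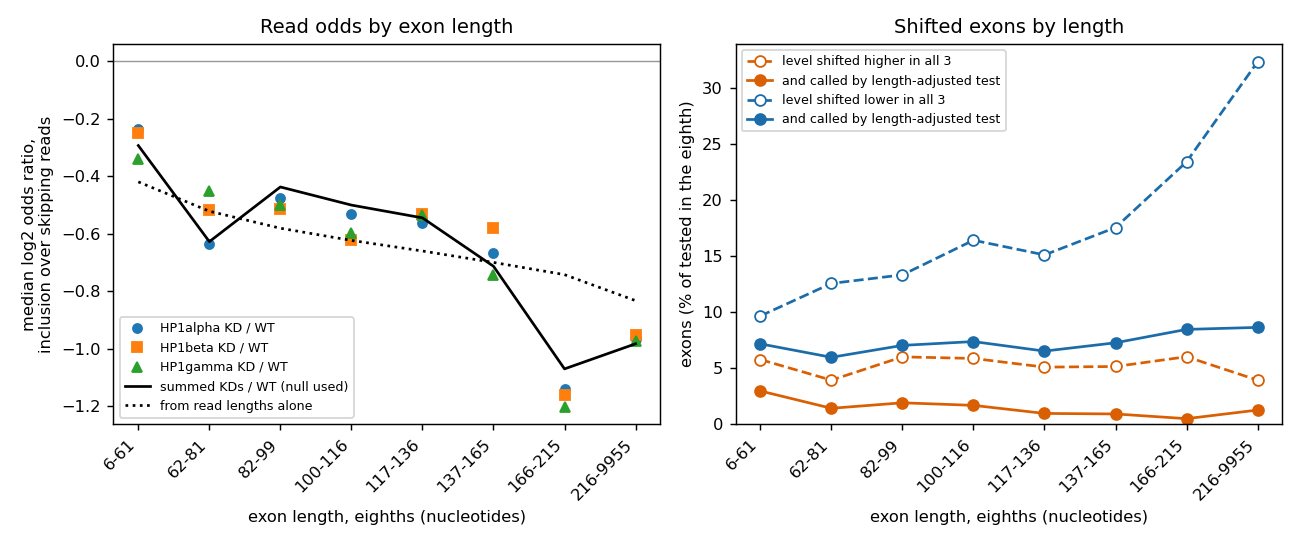
Left, median log2 odds ratio of inclusion over skipping reads in each knock-down against WT, by eighths of exon length in nucleotides; the solid line is the null value used by the test and the dotted line the value that read lengths alone would give. Right, share of tested exons whose level was shifted in all 3 knock-downs (open points) and of those also called by the length-adjusted test (filled points); the lower shifts climb from 9.66% to 32.3% with length, the called ones stay between 5.97% and 8.63%.

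The length-adjusted exact test called 1111 of 5101 exons (21.8%) at a Benjamini-Hochberg adjusted p of at most 0.05, 428 with higher odds of inclusion over skipping reads than the null value of their length eighth (8.39%) and 683 with lower odds (13.4%). At 9 of the 428 the odds were below those of WT before the adjustment. The level was shifted in all 3 knock-downs at 1158 exons, higher at 266 (5.21%) and lower at 892 (17.5%). The 2 criteria together left 446 changed exons (8.74%) in 349 genes: 74 rose (1.45%) and 372 fell (7.29%). These counts and shares are of events, and the 446 cover 435 distinct exons. With 1 event per distinct exon, 69 rose and 338 fell of 4901 tested. At least 1 knock-down lacked reads that fit both isoforms at 20 of the 74, 19 of the 372 and 1080 of all 5101. With such reads required in all 4 libraries, a setting added after the data were seen, 57 rose and 331 fell of 4021 tested. The 3 differences share the WT library, so their common direction is a description and not a repeat. Without the length adjustment the test called 253 exons higher and 1112 lower, and subtracting the median level difference of each length eighth gave 340 exons shifted higher and 644 lower.

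Exons that rose had a median level of 0.83, 0.835 and 0.815 after HP1alpha, HP1beta and HP1gamma knock-down, against 0.43 in WT. Those that fell had a median level of 0.31, 0.32 and 0.31 in these knock-downs, against 0.735 in WT. The median difference was 0.23 for exons that rose and -0.25 for exons that fell, beside -0.03 over all tested exons. Every knock-down differed from WT by at least 0.5 at 8 exons that rose and 37 that fell. The deposited intervals of all 3 knock-downs lay apart from that of WT at 54 of the 74 and 313 of the 372. Among all exons shifted in level they lay apart at 147 of the 266 higher and 521 of the 892 lower. The rule chose exons by their level differences, so this separation follows in part from the rule. The 3 knock-downs lay within 0.1 of each other at 354 of the 446 exons. Their median spread was 0.04 for exons that rose and 0.05 for exons that fell, beside 0.03 over all tested exons.

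**Figure D2:**
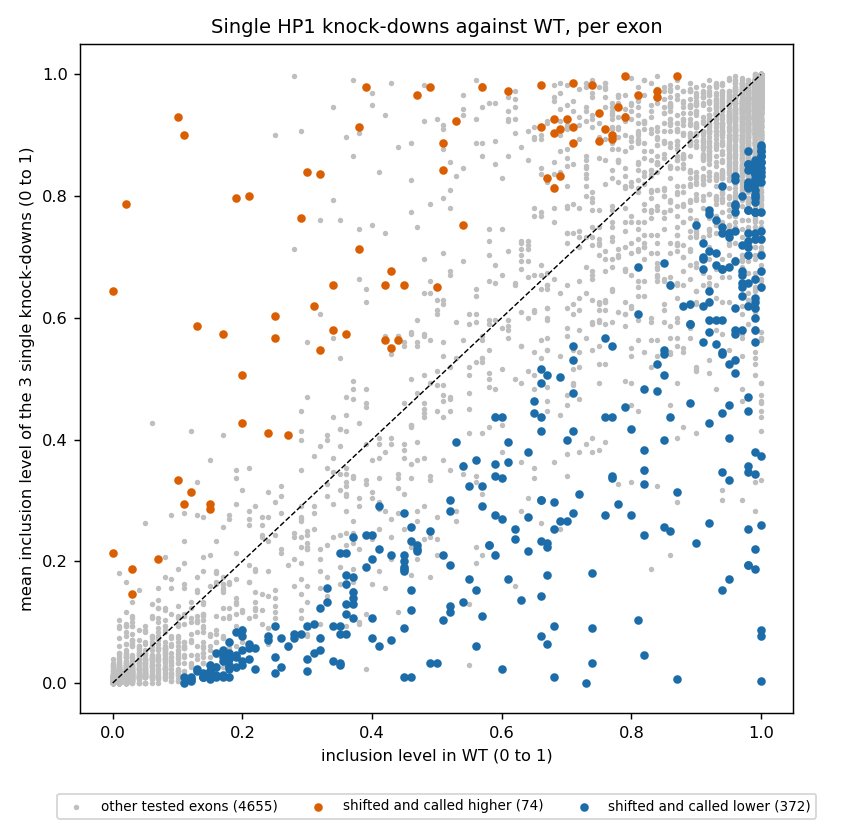
Mean inclusion level of the 3 single knock-downs (vertical axis) against the level in WT (horizontal axis) for the 5101 tested exons, 0 to 1 on both. The 74 exons that rose (orange) have a WT median of 0.43, the 372 that fell (blue) one of 0.735, and 112 of the exons that fell had no skipping read in WT.

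Among the exons that rose, Morf4l1 had the greatest smallest difference from WT. Morf4l1 encodes a chromodomain protein of histone acetyltransferase complexes, and its 117-nucleotide exon lies at chr9:90103655-90103771 of mm10. The exon had levels of 0.93, 0.95 and 0.91 after HP1alpha, HP1beta and HP1gamma knock-down, against 0.10 in WT, and its intervals began at 0.72 or higher in the knock-downs and ended at 0.11 in WT. The knock-downs together had 330 inclusion reads and no skipping read, while WT had 356 inclusion and 508 skipping reads. Reads that fit both isoforms numbered 0 in each of the 3 knock-downs and 5662 in WT. Reads over the whole event were scarcer in the knock-downs, at 20.8, 22.7 and 21.1 RPM after HP1alpha, HP1beta and HP1gamma knock-down against 304 RPM in WT.

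Rps24 encodes a protein of the small ribosomal subunit, and its 20-nucleotide exon at chr14:24495430-24495449 had levels of 0.80, 0.79 and 0.81 after HP1alpha, HP1beta and HP1gamma knock-down and 0.21 in WT. Atp5c1 encodes the gamma subunit of mitochondrial ATP synthase. Its 37-nucleotide exon at chr2:10056770-10056806 had levels of 0.96, 0.99 and 0.99 after HP1alpha, HP1beta and HP1gamma knock-down and 0.39 in WT. The 27-nucleotide exon of Mtch2, a gene for an outer mitochondrial membrane protein, had levels of 0.80, 0.74 and 0.75 in these knock-downs and 0.29 in WT. In these 3 genes the lowest knock-down level lay well above the WT level.

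The 271-nucleotide exon of Rbm3, a cold-inducible RNA-binding protein, had levels of 0.80, 0.84 and 0.75 after HP1alpha, HP1beta and HP1gamma knock-down and 0.19 in WT. A 63-nucleotide exon of Eif4a3, the helicase of the exon junction complex, stood at 0.98 in each of the 3 knock-downs and at 0.49 in WT. Ewsr1, an RNA-binding protein of the FET family, had a 35-nucleotide exon at 0.86, 0.88 and 0.77 after HP1alpha, HP1beta and HP1gamma knock-down and at 0.32 in WT. The splicing factor gene Rbm39 had a 274-nucleotide exon at 0.55, 0.57 and 0.64 after HP1alpha, HP1beta and HP1gamma knock-down and 0.13 in WT. The deposited intervals were wide, 0.15 to 0.98, 0.16 to 0.91 and 0.26 to 0.96 in these knock-downs, and 0.11 to 0.14 in WT. Its 214 inclusion reads in the knock-downs met no skipping read, while WT had 284 inclusion and 1546 skipping reads. Reads that fit both isoforms of this event numbered 0 in each of the 3 knock-downs and 536 in WT. A second event with this Rbm39 exon but a different upstream intron was also changed, with a smaller difference. Its levels were 0.71, 0.73 and 0.59 after HP1alpha, HP1beta and HP1gamma knock-down and 0.43 in WT. Exons whose event lay within no annotated protein-coding gene were also among the 12 with the greatest differences. A 107-nucleotide exon on chromosome 19 stood at 0.82, 0.85 and 0.85 after HP1alpha, HP1beta and HP1gamma knock-down and 0.30 in WT. A 497-nucleotide exon on chromosome 7 stood at 0.97, 0.96 and 0.97 in these knock-downs and 0.47 in WT.

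Among the exons that fell, some had no inclusion read in any of the 3 knock-downs. A 69-nucleotide exon of Srp9, a subunit of the signal recognition particle, at chr1:182128684-182128752 had a level of 0.00 in each of the 3 knock-downs and 0.73 in WT. The knock-downs had 282 skipping reads and no inclusion read, and WT had 53 skipping and 362 inclusion reads. The 115-nucleotide exon of Kansl2, a subunit of the NSL histone acetyltransferase complex, at chr15:98531323-98531437 had levels of 0.01, 0.00 and 0.01 after HP1alpha, HP1beta and HP1gamma knock-down and 0.87 in WT. Here too no inclusion read was found in the knock-downs, beside 92 skipping reads, against 615 inclusion and 27 skipping reads in WT. A 72-nucleotide exon of Hnrnpk, an RNA-binding hnRNP gene, had a level of 0.01 in every knock-down and 0.45 in WT, with 85 skipping reads and no inclusion read in the knock-downs but only 14.9 to 19.1 RPM over the event there, against 620 RPM in WT.

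Tarbp2, a partner of Dicer, had a 103-nucleotide exon at 0.20, 0.24 and 0.14 after HP1alpha, HP1beta and HP1gamma knock-down and 0.98 in WT. The 126-nucleotide exon of Ube2v1, a cofactor of ubiquitin conjugation, had levels of 0.05, 0.04 and 0.05 in these knock-downs and 0.82 in WT. Ccdc136 had a 282-nucleotide exon at 0.27, 0.17 and 0.14 in the knock-downs and 0.98 in WT. WT had no skipping read at these 3 exons, while the knock-downs together had 67 skipping and 62 inclusion reads at Tarbp2, 88 and 94 at Ube2v1, and 74 and 61 at Ccdc136.

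**Figure D3:**
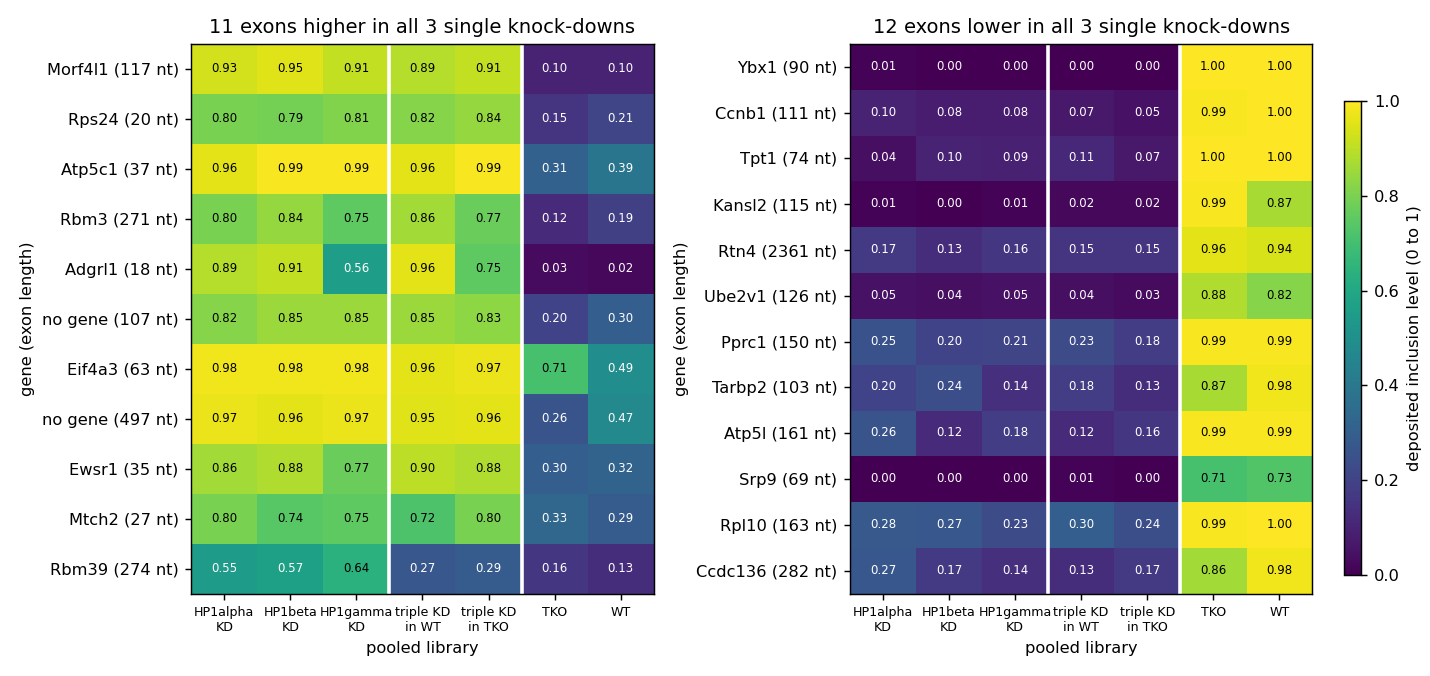
Deposited inclusion level (0 to 1, colour and printed value) in the 7 pooled libraries for up to 12 exons with the greatest smallest difference per direction, 1 exon per gene; KD stands for knock-down and nt for nucleotides. White lines part the single knock-downs, the triple knock-downs and the untransfected cells, and the triple knock-downs resemble the single ones at most exons, Rbm39 lying lower in both at 0.27 and 0.29.

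At several of these exons the deposited level and the distinguishing reads differed in size. Ybx1 encodes a Y-box protein that packages mRNA, and its 90-nucleotide exon had deposited levels of 0.01, 0.00 and 0.00 after HP1alpha, HP1beta and HP1gamma knock-down and 1.00 in WT. Its inclusion reads numbered 143 in the knock-downs and 7426 in WT, and its skipping reads 23 and 0. A level computed from these reads per position, with the exon length and read length taken into account, was 0.82, 0.68 and 0.78 in the knock-downs and 1.00 in WT. The 163-nucleotide exon of Rpl10, a gene of the large ribosomal subunit, had deposited levels of 0.28, 0.27 and 0.23 after HP1alpha, HP1beta and HP1gamma knock-down and 1.00 in WT, but levels from reads of 0.97 to 0.98 in the knock-downs. Rtn4, which encodes the endoplasmic reticulum protein Nogo, had a 2361-nucleotide exon at 0.17, 0.13 and 0.16 in the knock-downs and 0.94 in WT, and levels from reads of 0.97, 0.94 and 0.93 after HP1alpha, HP1beta and HP1gamma knock-down and 1.00 in WT. Ccnb1, the gene of cyclin B1, stood at 0.10, 0.08 and 0.08 in the knock-downs and 1.00 in WT at a 111-nucleotide exon, and at 0.63, 0.63 and 0.94 by reads after HP1alpha, HP1beta and HP1gamma knock-down. The same held for Pprc1, a transcriptional coactivator, and Atp5l, a subunit of ATP synthase: their levels from reads were 0.74 to 0.95 in the knock-downs, where the deposited levels were 0.12 to 0.26. Some exons that rose had such a gap in WT. There the levels from reads were 0.79 at Ewsr1, 0.78 at Eif4a3, 0.69 at Atp5c1 and 0.70 at the 497-nucleotide exon on chromosome 7. The deposited WT levels were 0.32, 0.49, 0.39 and 0.47. In the knock-downs their levels from reads were 0.95 to 1.00, so these rises were smaller by reads. At Morf4l1, Rps24 and Mtch2 the WT levels from reads, 0.17, 0.28 and 0.37, lay nearer the deposited ones. How the deposited level weighs reads of the other classes could not be examined.

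Over all changed exons the level from reads was shifted the same way by 0.1 in all 3 knock-downs at 64 of the 74 that rose (86.5%) and 263 of the 372 that fell (70.7%), and was shifted the other way at none. With the level from reads in place of the deposited one, 211 exons rose and 328 fell, so 39.1% of the changed exons rose, against 16.6% with the deposited level. Changed by both were 327 exons. The level from reads counts positions of single reads, although the knock-down libraries were paired-end. A further 55 exons were shifted in level but called in the opposite direction by their reads, 10 with higher levels and 45 with lower ones. Safb2, which encodes a nuclear scaffold attachment factor, had a 658-nucleotide exon at 0.41, 0.46 and 0.51 after HP1alpha, HP1beta and HP1gamma knock-down and 1.00 in WT. The deposited intervals were wide, 0.01 to 0.85, 0.05 to 0.87 and 0.05 to 0.91 in these knock-downs, so the level there is poorly determined. Skipping reads of this exon numbered 0 in the knock-downs and 11 in WT. An exon of Tdh, the threonine dehydrogenase of mouse ES cells, had levels of 0.90, 0.89 and 0.85 in the knock-downs and 0.44 in WT, with 75 skipping reads in the knock-downs and none in WT. Exons of Brd8 and Ckmt1, and exons within no annotated protein-coding gene on chromosomes 4 and 12, were the others with the greatest differences among these 55. Under a null odds ratio of 1, which takes away the length adjustment, Safb2, Tdh and Brd8 kept the call. Ckmt1 (exact test, adjusted p = 0.655) and the exon on chromosome 4 (exact test, adjusted p = 0.527) lost it, and the 9955-nucleotide exon on chromosome 12 turned to the direction of its level, with a log2 odds ratio of -0.34 (exact test, adjusted p = 4.31e-05). Without the HP1alpha library the calls of Brd8 (exact test, adjusted p = 0.0752), Ckmt1 (exact test, adjusted p = 0.0528) and the exon on chromosome 4 (exact test, adjusted p = 0.128) were lost, and that of Ckmt1 was lost without either of the other libraries too (exact test, adjusted p = 0.0628 without HP1beta and 0.199 without HP1gamma). Before the length adjustment the odds ratio went against the level at 52 of the 55 exons and with it at 3.

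Reads over an event in the knock-downs, as a mean of the 3 libraries, were under 0.25 of the WT value in RPM at 4 of the 74 exons that rose (5.41%), 9 of the 372 that fell (2.42%) and 60 of all 5101 (1.18%). Of the exons described here, those of Morf4l1, Tpt1, Rpl10, Syncrip and Hnrnpk lay below that share. Genes with an annotated pseudogene of their name held 6.76% of the exons that rose, 4.30% of those that fell and 2.12% of all. Among the 12 exons with the greatest differences per direction they held 4 that rose (33.3%) and 6 that fell (50%). These lay in Morf4l1, Rps24, Atp5c1 and Rbm3, and in Ybx1, Ccnb1, Tpt1, Kansl2, Atp5l and Rpl10. A pseudogene of like sequence can take reads from its gene, so these values are uncertain. How alike the sequences are was not examined. The part of this in the shifts was not tested. Without the 60 exons 70 rose and 358 fell.

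Splicing regulators had changed exons in all 3 lists made for them. Of 37 exons of SR proteins and their kinases, which bind exonic enhancers, 1 rose and 4 fell (13.5%, beside 8.74% over all tested exons). Tra2a, an SR-like activator of splicing, had a 306-nucleotide exon at 0.10, 0.10 and 0.08 after HP1alpha, HP1beta and HP1gamma knock-down and 0.68 in WT. Srsf1, a classical SR protein, had a 187-nucleotide exon at 0.99, 0.99 and 0.97 in these knock-downs and 0.74 in WT. The SR protein kinase gene Clk2 had an 85-nucleotide exon at 0.69, 0.69 and 0.55 in the knock-downs and 0.92 in WT, a call of the length-adjusted test that was lost without the HP1gamma library (exact test, adjusted p = 0.149). By reads Clk2 stood at 0.83, 0.80 and 0.70 in the knock-downs and 0.90 in WT, not shifted by 0.1 in all 3. Srsf11 and Srrm1 gave the others that fell, and the level of Srsf11 from reads was not shifted by 0.1 in all 3 knock-downs.

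Of 38 exons of hnRNP genes, whose proteins often oppose exon inclusion, 2 rose and 7 fell (23.7%, beside 8.74% over all). The 26-nucleotide exon of Hnrnpc stood at 0.62 in each of the 3 knock-downs and 0.31 in WT, and had 18773 inclusion and 8759 skipping reads over the 3 knock-downs. Hnrnpa2b1 had a 136-nucleotide exon at 0.18, 0.20 and 0.20 after HP1alpha, HP1beta and HP1gamma knock-down and 0.52 in WT. Syncrip had a 160-nucleotide exon at 0.38, 0.35 and 0.31 in these knock-downs and 0.94 in WT. Of 46 exons of other splicing regulators, 6 rose and 5 fell (23.9%). Among those that rose, the 274-nucleotide exon of Rbm39 is counted as 2 events. Ptbp1, the polypyrimidine tract binding protein, had exons in both directions. Its 31-nucleotide exon stood at 0.92, 0.91 and 0.91 after HP1alpha, HP1beta and HP1gamma knock-down and 0.71 in WT, and its 78-nucleotide exon at 0.46, 0.47 and 0.46 in the knock-downs and 0.65 in WT. Sf1, the branch point binding protein, had a 205-nucleotide exon at 0.41, 0.40 and 0.43 in the knock-downs and 0.66 in WT.

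Of 103 exons of chromatin and DNA methylation regulators, 3 rose and 13 fell (15.5%, beside 8.74% over all tested exons, of which 1.45% rose and 7.29% fell). Those that rose were overlapping events of Morf4l1, of 117 and 114 nucleotides, and a 36-nucleotide exon of Mta1, a subunit of the NuRD corepressor. Kansl2, whose exon fell, is not on this list. Mtf2, a Polycomb-like subunit of PRC2, had 3 exons that fell. Its 202-nucleotide exon had levels of 0.29, 0.26 and 0.28 after HP1alpha, HP1beta and HP1gamma knock-down and 0.80 in WT. The corepressor gene Ncor1 had a 99-nucleotide exon at 0.47, 0.55 and 0.51 in these knock-downs and 0.96 in WT. Morf4l2, a relative of Morf4l1, had a 77-nucleotide exon at 0.02, 0.03 and 0.02 in the knock-downs and 0.60 in WT, where reads alone gave 0.79, 0.80 and 0.76 after HP1alpha, HP1beta and HP1gamma knock-down and 0.98 in WT.

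Of 46 exons of ribosomal proteins and translation factors, 5 rose and 6 fell (23.9%, beside 8.74% over all). The list holds Rps24, Eif4a3, Ybx1, Tarbp2, Tpt1 and Srp9 from above but not Rpl10, whose exon also fell. With a Dicer partner and a subunit of the signal recognition particle on it, the list is loosely drawn. It was made with earlier results of these data known, so the share is that of the list alone. Eif4a2, an RNA helicase of translation initiation, had a 107-nucleotide exon at 0.12, 0.10 and 0.09 after HP1alpha, HP1beta and HP1gamma knock-down and 0.81 in WT. Of 43 exon events of mitochondrial genes, 4 rose and 2 fell (13.95%). Within this list those that rose lay in Atp5c1 and Immt alone, and the Immt events of 138 and 105 nucleotides overlap. Mtch2, whose exon rose, is not on the list. The 33-nucleotide exon of Dnm1l, the dynamin of mitochondrial fission, fell, at 0.37, 0.38 and 0.40 in these knock-downs and 0.82 in WT. Of 56 exons of cell cycle and DNA repair genes none rose and 5 fell (8.93%, near the 8.74% over all tested exons), 2 each in Ccnb1 and in Mdm2, the ubiquitin ligase of p53, and 1 in Depdc1a. The 131-nucleotide exon of Mdm2 had levels of 0.31, 0.32 and 0.31 after HP1alpha, HP1beta and HP1gamma knock-down and 0.87 in WT.

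Of 121 exons of cell junction and cytoskeleton genes, 2 rose and 7 fell (7.44%, against 8.74% over all tested exons). Ctnnd1, which encodes the cadherin partner p120 catenin, had a 180-nucleotide exon at 0.07, 0.04 and 0.08 after HP1alpha, HP1beta and HP1gamma knock-down and 0.67 in WT. A 273-nucleotide exon of Fn1, the matrix protein fibronectin, stood at 0.45, 0.54 and 0.45 in these knock-downs and 0.84 in WT. Map4, a microtubule-associated protein, had a 93-nucleotide exon at 0.12 in every knock-down and 0.46 in WT. Of 12 exons of pluripotency genes only the 70-nucleotide exon of Tcl1 changed, at 0.82, 0.78 and 0.76 after HP1alpha, HP1beta and HP1gamma knock-down and 0.96 in WT. By reads Tcl1 stood at 0.89, 0.85 and 0.86 in these knock-downs and 0.94 in WT, not shifted by 0.1 in all 3. None of 8 exons of interferon and siRNA response genes was changed or shifted. The median difference from WT over the exons of a list lay between -0.06 (hnRNP genes) and -0.005 (interferon and siRNA response genes) for the lists with at least 8 exons, beside -0.03 over all tested exons.

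The same exons were read in libraries that had no part in choosing them, the triple knock-down in TKO cells and untransfected TKO cells. Platform and transfection coincide with knock-down there as well. Of the 74 exons that rose, 69 could be tested, and 40 (58.0%) had a higher level by at least 0.1 in the TKO triple knock-down than in TKO, beside 5.89% of the 4721 exons tested there. The 2 shares are not like for like, since a level above 0.9 cannot rise by 0.1. The median TKO level of the exons tested against WT was 0.94, whereas the exons that rose had a WT median of 0.43. Of the 372 that fell, 341 could be tested and 287 (84.2%) had a lower level, beside 26.1%. With the length-adjusted test as well, 29 of the 69 (42.0%, beside 1.46%) and 168 of the 341 (49.3%, beside 6.23%) were called in the same direction, and 0 and 2 in the opposite one. The median difference was 0.13 for exons that had risen and -0.22 for exons that had fallen, beside -0.04 over all exons.

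**Figure D4:**
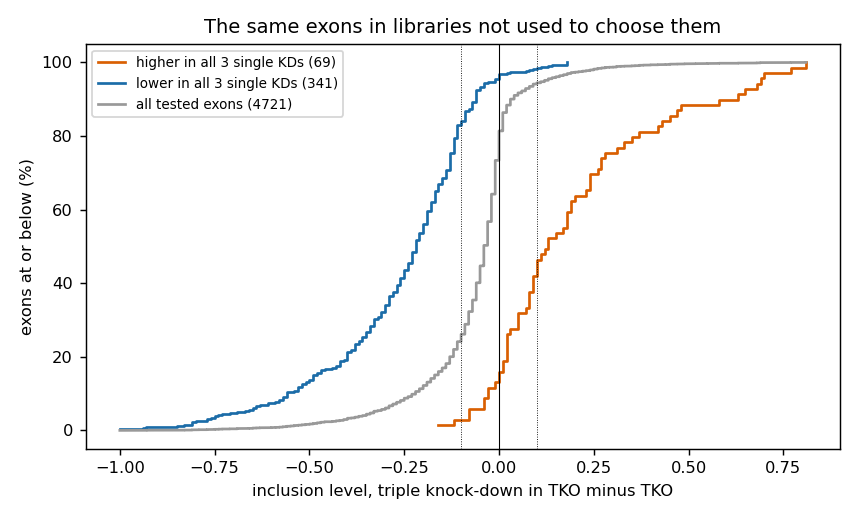
Cumulative share of exons (%) by the difference in inclusion level, TKO triple knock-down minus TKO, for the exons that rose (69) or fell (341) in the 3 single knock-downs and for all 4721 exons tested in both TKO libraries. Dotted lines stand at 0.1 and -0.1; the medians are 0.13, -0.22 and -0.04.

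Morf4l1 had levels of 0.91 in the TKO triple knock-down and 0.10 in TKO, with a length-adjusted exact test giving a Benjamini-Hochberg adjusted p of 4.38e-46. Rps24 stood at 0.84 in the TKO triple knock-down and 0.15 in TKO (exact test, adjusted p = 5.72e-126), and Hnrnpc at 0.58 in the TKO triple knock-down and 0.16 in TKO (exact test, adjusted p = 5.86e-98). Srp9 stood at 0.00 in the TKO triple knock-down and 0.71 in TKO (exact test, adjusted p = 1.79e-50). Tra2a had levels of 0.13 in the TKO triple knock-down and 0.74 in TKO (exact test, adjusted p = 1.38e-30). These 5 exons thus differed in the same direction in both cell lines, while others did not meet the call in TKO cells. Eif4a3 had levels of 0.97 in the TKO triple knock-down and 0.71 in TKO, but 1 skipping read in the knock-down and none in TKO (exact test, adjusted p = 0.956). Sf1 had levels of 0.39 in the TKO triple knock-down and 0.48 in TKO (exact test, adjusted p = 0.624). Tpt1, which encodes a translationally controlled protein, had deposited levels of 0.07 in the TKO triple knock-down and 1.00 in TKO with no skipping read in either (exact test, adjusted p = 1). Rtn4 had levels of 0.15 in the TKO triple knock-down and 0.96 in TKO, while its reads moved the other way (exact test, adjusted p = 0.00252), with 1 skipping read in the knock-down and 34 in TKO.

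The 3 single knock-downs, which share platform and transfection, seldom differed from each other by read counts. Two-sided Fisher exact tests with Benjamini-Hochberg adjustment called 3 exons between HP1alpha and HP1beta (0.0588%), 3 between HP1alpha and HP1gamma (0.0588%) and 4 between HP1beta and HP1gamma (0.0784%), 7 exons in all. At an unadjusted p of at most 0.05 the 3 pairs had 133, 141 and 136 exons. Of the 446 changed exons, 3 were called in a pair, in Immt, Tpt1 and Rsrc2. The other 4 called exons, in Srsf7, Rps9, Actb and the 9955-nucleotide exon on chromosome 12, were not among the 446, and the levels of a called pair lay within 0.01 of each other there. Depth limits these tests, so exons not called are not shown to be alike.

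Immt encodes the core subunit of the mitochondrial contact site complex that shapes cristae. Its 15-nucleotide exon at chr6:71866726-71866740 had levels of 0.82, 0.28 and 0.83 after HP1alpha, HP1beta and HP1gamma knock-down and 0.00 in WT. The reads were 387 for inclusion and 62 for skipping in the HP1alpha knock-down, 45 and 63 in the HP1beta knock-down, 295 and 44 in the HP1gamma knock-down, and 0 and 69 in WT. The HP1beta knock-down lay apart from both others (Fisher's exact test, adjusted p = 6.63e-17 against HP1alpha and 4.5e-16 against HP1gamma), and its level was close to the 0.33 of the triple knock-down in R1 cells. The TKO triple knock-down and TKO stood at 0.01 and 0.00, with no inclusion read in either library. Immt had 2 further overlapping events that rose, of 138 and 105 nucleotides. Their level from reads was not shifted by 0.1 in all 3 knock-downs.

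At the 93-nucleotide exon of Rsrc2, an arginine- and serine-rich protein gene, the levels were 0.09, 0.04 and 0.11 after HP1alpha, HP1beta and HP1gamma knock-down and 0.28 in WT. The HP1beta knock-down was lower than the HP1alpha and HP1gamma knock-downs (Fisher's exact test, adjusted p = 0.0387 and 0.0042). Tpt1 had levels of 0.04, 0.10 and 0.09 after HP1alpha, HP1beta and HP1gamma knock-down and 1.00 in WT at a 74-nucleotide exon, lower in the HP1alpha knock-down than in the HP1beta and HP1gamma knock-downs (exact test, adjusted p = 1.3e-24 and 1.64e-16).

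The levels of the 3 knock-downs spread over more than 0.2 at 18 of the 446 exons, 4 that rose and 14 that fell. Adgrl1, the adhesion receptor latrophilin 1, had an 18-nucleotide exon at 0.89, 0.91 and 0.56 after HP1alpha, HP1beta and HP1gamma knock-down and 0.02 in WT. The HP1gamma library had 32 distinguishing reads there and an interval of 0.39 to 0.72, and no pair of knock-downs was called. Fgfr2, a receptor of fibroblast growth factors, had a spread of 0.19 and so is not among the 18. It had a 145-nucleotide exon at 0.23, 0.42 and 0.42 after HP1alpha, HP1beta and HP1gamma knock-down and 0.98 in WT, again with no pair called.

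**Figure D5:**
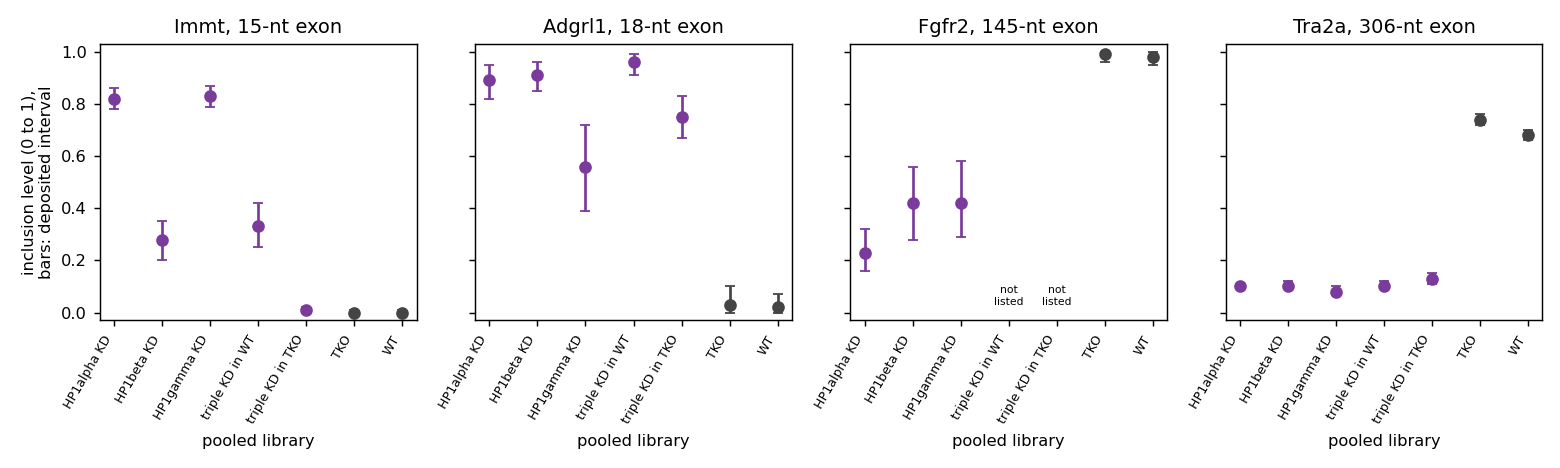
Deposited inclusion level (0 to 1) with its interval in each pooled library for exons of Immt, Adgrl1, Fgfr2 and Tra2a, knock-downs in purple and untransfected cells in dark grey. Immt splits by target, 0.82, 0.28 and 0.83 after HP1alpha, HP1beta and HP1gamma knock-down, while Tra2a lies at 0.08 to 0.13 in every knock-down library.

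The exons that rose had a median length of 96.5 nucleotides, against 122 for those that fell and 116 over all tested exons. Microexons of at most 27 nucleotides made up 7 of the 74 that rose (9.46%), 4 of the 372 that fell (1.08%) and 97 of all 5101 (1.90%). Flanking introns of exons that rose had medians of 1057.5 nucleotides upstream and 1042.5 downstream, against 1544.5 and 1927 for exons that fell and 1576 and 1516 over all. Lengths that keep the reading frame, divisible by 3, were found at 48.6% of the exons that rose, 46.0% of those that fell and 45.8% of all. Levels between 0.1 and 0.9 in WT were found at 91.9% of the exons that rose, 61.6% of those that fell and 29.4% of all; a shift of 0.1 upwards is possible only below a level of 0.9, so this contrast follows in part from the rule.

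Several changed exons fell in the same gene in 57 genes, often as events that share part of their sequence and are not independent. In 5 genes, Bcas3, Chtf8/Derpc, Klhdc10, Ptbp1 and Renbp, exons changed in both directions. Bcas3 had a 66-nucleotide exon at 0.55, 0.55 and 0.62 after HP1alpha, HP1beta and HP1gamma knock-down and 0.17 in WT, and a 91-nucleotide exon at 0.79, 0.85 and 0.82 in these knock-downs and 0.98 in WT.

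At the threshold of 0.1, exons of Gabpa and Zc3h15 lay just inside on the upper side and were not called by reads. Gabpa had levels of 0.91, 0.96 and 0.97 after HP1alpha, HP1beta and HP1gamma knock-down and 0.81 in WT. Actb and a 139-nucleotide exon of Hnrnph1 lay just outside, Actb at 0.99, 0.99 and 0.98 in these knock-downs and 0.89 in WT. On the lower side Map1a and Rab11a lay just inside, Rab11a at 0.90, 0.85 and 0.77 after HP1alpha, HP1beta and HP1gamma knock-down and 1.00 in WT. By reads Rab11a stood at 0.98, 0.97 and 0.97 in these knock-downs and 1.00 in WT. Rpl13a and Zranb2 lay just outside, Zranb2 at 0.91, 0.87 and 0.90 in the knock-downs and 1.00 in WT.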

How the data were processed

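The deposited inclusion level is a fraction, the posterior mean of the authors' MISO output for skipped exons, per the file headers, which also give an interval of unstated level and the count of reads that fit inclusion alone, skipping alone, both or neither. The authors pooled the 2 replicates of a group, per the labels. TopHat2, Bowtie2 and mm10 are named in the submitters' processing notes; their versions were not given in the sources used. Every deposited event has at least 100 reads. Bisulfite and MNase samples were not analysed here.

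Events were joined by coordinates and named from the GRCm38.p6 gene table by the protein-coding gene whose span holds the event. Inclusion and skipping reads of the 3 single knock-downs were summed and compared with WT by a two-sided exact noncentral hypergeometric test. Its null log odds ratio was the median of the exon's eighth of length, from exons with 5 or more reads per class and 0.5 added to each cell. P-values were adjusted by Benjamini-Hochberg over all 5101 exons, and those behind the changed exons are not printed, since the same libraries chose the exons. Counts of reads are not independent molecules, and each p covers counting error only. The level from reads was the inclusion reads per (exon length plus read length minus 1), over the sum of that and the skipping reads per (read length minus 1), an alternative added after the data were seen. Its formula ignores the pairing of reads in the knock-down libraries, and the effect of this on the level was not tested. The scripts, in Python 3.11.15 with scipy 1.17.1, were tested on simulated data.

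Named exons are, per direction, the 12 changed exons with the greatest smallest difference from WT, 1 per gene, then up to 4 per gene list by the same rank, exons whose reads go against the level, and those next to the threshold. A few others of the lists, and exons that differ between knock-downs or lie in both directions in a gene (Srrm1, Eif4a2, Mta1, Ptbp1, Srsf7, Rps9, Bcas3, Chtf8/Derpc, Klhdc10, Renbp, Rsrc2), were named after their values were seen. Some exons that the rule takes are not reported here. The exons, lists and tests were chosen with earlier results of these data known.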

Additional observations from a re-analysis of the deposited data

Results flagged for a closer look

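Of the 446 changed exons, those were singled out here where the read counts of 2 single knock-downs were called different by Fisher's exact test, adjusted over all exons of a pair. For Immt, the 15-nucleotide exon differed in level by 0.54 between the HP1alpha and HP1beta knock-downs (exact test, adjusted p = 6.63e-17) and by -0.55 between the HP1beta and HP1gamma knock-downs (exact test, adjusted p = 4.5e-16). The 74-nucleotide exon of Tpt1 differed by -0.06 between HP1alpha and HP1beta (exact test, adjusted p = 1.3e-24) and by -0.05 between HP1alpha and HP1gamma (exact test, adjusted p = 1.64e-16). The 93-nucleotide exon of Rsrc2 differed by 0.05 between HP1alpha and HP1beta (exact test, adjusted p = 0.0387) and by -0.07 between HP1beta and HP1gamma (exact test, adjusted p = 0.0042). Each difference is the first library minus the second, between libraries of 1 pool each.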

How the results depend on the processing

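No paired analysis was possible because the replicates of each group were pooled before deposit, and for the same reason no replicate could be left out. Among changed exons, 74 rose and 372 fell. A level from reads gave 211 higher, a level difference of at least 0.2 gave 36 higher and 196 lower, 5 reads of each class gave 218 lower, and a call in each library alone gave 213 lower. Of exons shifted in level, 266 higher and 892 lower, at least 50 reads gave 558 lower, a difference of 0.2 gave 131 and 385, one of 0.05 gave 403 and 1607, intervals apart gave 147 and 521, and levels from reads gave 389 lower. Of exons called by reads, 428 higher and 683 lower, a null odds ratio of 1 gave 253 and 1112, 5 reads of each class gave 356 lower, and a call in each library alone gave 187 and 324. The other counts stayed within 1.5 times. Of 276 values recomputed for the 46 changed exons that the naming rule takes, 273 kept their direction and call, 3 lost the call (Clk2 without HP1gamma, Rab11a without HP1beta or HP1gamma) and 0 turned round. The 9955-nucleotide exon on chromosome 12 had a log2 odds ratio of 0.64 relative to its null and -0.34 under a null odds ratio of 1 (exact test, adjusted p = 4.31e-05), which removes the length adjustment. Other causes were not tested.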
